A study of Mus musculus with 2 samples.

Results

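Expression of 10 genes of the YAP and TAZ pathway was measured in mouse glomeruli. These were the coactivator genes Yap1 and Wwtr1 (which encodes TAZ), the gene of their DNA-binding partner Tead1, and Ccn1, Ccn2, Ankrd1, Amotl2, Lats2, Ajuba and Axl, which are targets or regulators of the pathway. Members were all probe sets that the platform annotation pairs with exactly 1 gene symbol from these 10, which gave 24 of 45101 probe sets. All 10 genes were among the 13290 genes measured, of 18193 with a named probe set. A gene counted as measured where its higher signal reached a floor of 52.7, set at the 40th percentile of signal (averaged over both arrays).

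One array held glomerular RNA of male C57BL/6J mice with the alleles GC-A fl/fl and p38 fl/fl and a Cre allele driven by the nephrin promoter, labelled Nephrin-Cre(Cre/+) (called the double knockout). The other held RNA of male C57BL/6J mice with the same floxed alleles, labelled Nephrin-Cre (+/+), read here as carrying no Cre (the floxed control). GC-A, encoded by Npr1, is a receptor with guanylyl cyclase activity that binds natriuretic peptides, and p38 is a kinase of the stress response. The nephrin promoter is active in podocytes, which form the epithelial side of the glomerular filter, so the deletion is directed to podocytes. Mice of both genotypes were 2 months of age and had received 6% NaCl in the diet and aldosterone from a minipump (0.2 µg each minute per kg body weight) for 3 weeks. The control thus shares the floxed alleles and the salt and hormone load, and no untreated group is among the samples. Glomeruli were isolated by graded sieving, and the labels give no number of mice per array. With 1 array per genotype there is no replicate check, no error and no test for any difference given here, and higher and lower describe these arrays. Values are MAS5 signal intensities, which have no unit.

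YAP and TAZ are transcriptional coactivators that carry mechanical and cell contact signals to the nucleus. When the Hippo kinases, of which LATS1 and LATS2 are the last, phosphorylate them, they are held in the cytoplasm; otherwise they bind TEAD factors and raise transcription of genes such as Ccn1, Ccn2 and Ankrd1. Podocytes are attached to a basement membrane under constant stretch, and YAP is known to sustain their survival. The arrays measure transcripts, not the phosphorylation or location of the YAP and TAZ proteins.

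Markers of the labelled tissue were present on both arrays, and so were markers of tubules. All 36 measured markers of podocytes, endothelial cells, mesangial cells and parietal cells together had a median log2 difference of 0.60, double knockout minus floxed control. Of these, 33 were above 0 and 5 at least 2-fold higher, against 56.1% and 3.53% of all measured genes. The summed signal of 10 podocyte markers was 93615 in the double knockout, against 68554 in the control, and that of 10 endothelial markers was 50671 in the double knockout, against 31668 in the control. Proximal tubule markers went the other way, with all 10 below 0, a median of -0.86 and a summed signal of 62518 in the double knockout, against 110405 in the control, and so did the 9 distal nephron markers (median -0.75, summed signal 40304 in the double knockout, against 56538 in the control). All 10 macrophage markers were above 0, with a median of 0.92 and a summed signal of 11787 in the double knockout, against 6473 in the control. The 7 fibroblast markers had a median of 0.022, with 4 above 0, and of the lymphocyte markers 3 were measured, with a summed signal of 247 in the double knockout, against 232 in the control. The part of these cell type differences in the values below was not tested, and in bulk glomeruli fewer cells of a type and less RNA per cell cannot be told apart. The share of tubule RNA on each array was not measured. Npr1 read 102 in the double knockout, against 167 in the control. Mapk14 encodes p38α and stands here for the p38 of the labels. The probe set that represents it read 2607 in the double knockout, against 2628 in the control. Other Mapk14 probe sets above the floor went both ways, with log2 differences of -0.15, -0.23, 0.012 and 0.25. A further one was below the floor on both arrays. Whether these probe sets lie in the deleted exons is not known here, so they check nothing about the deletion.

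All 10 genes had a higher signal in the double knockout than in the floxed control, except that 1 dim probe set each of Tead1 and Ccn1 was lower and that Yap1, Tead1, Amotl2 and Ajuba were below 0 once the glomerular markers were taken as the zero point (recentring). The log2 differences ran from 0.26 for Ajuba to 2.16 for Ankrd1, with a median of 0.62. Over all measured genes the median was 0.068 and 56.1% were higher by any size. Ankrd1 and Ccn2 were at least 2-fold higher, which makes 2 of 10, against a background of 3.53% of measured genes. None of the 10 was at least 2-fold lower, against 2.87%. Of the 36 glomerular markers, 5 were at least 2-fold higher. The 10 genes were chosen with earlier results of these data known, so these shares are descriptions. At 1.5-fold the count was 6 of 10, against 13.7% of measured genes and 18 of the 36 glomerular markers. The median of the 10 genes thus lay 0.022 above that of the glomerular markers, and 4 of them, Yap1, Tead1, Amotl2 and Ajuba, lay below it. After that recentring Ankrd1 stayed at least 2-fold higher (1.57 on the log2 scale) and Ccn2 stood at 0.62.

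**Figure D1:**
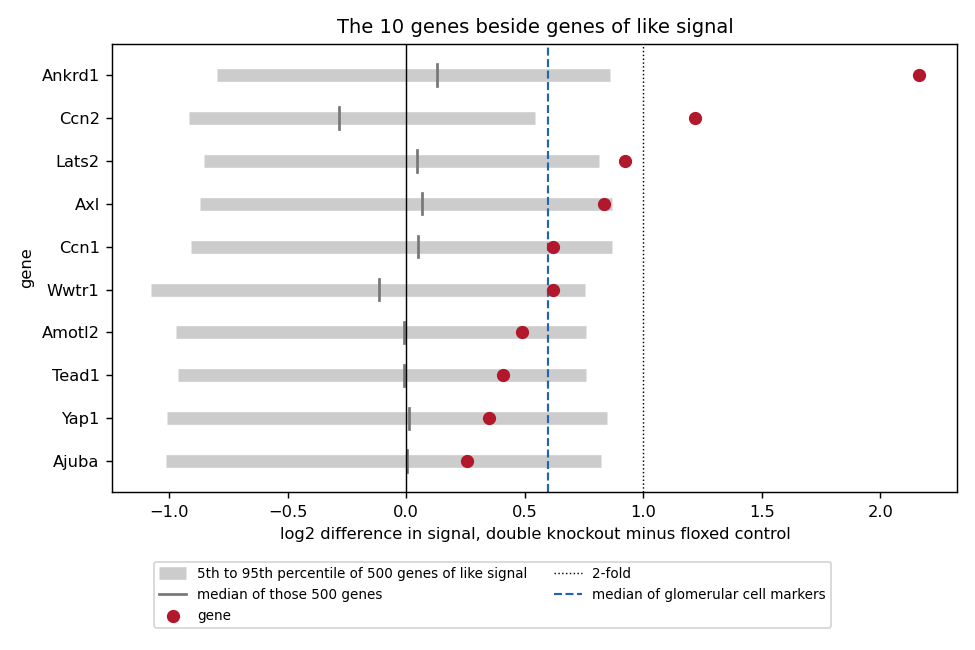
Log2 difference in signal (x axis) of each of the 10 genes (y axis), double knockout minus floxed control, with 1 array per genotype. Red points are the genes, grey bars span the 5th to 95th percentile of the 500 measured genes nearest in mean log2 signal, grey ticks their median, the blue dashed line is the median of the glomerular cell markers (0.60) and the dotted line marks 2-fold. Ankrd1, Ccn2 and Lats2 lie to the right of their grey bars, and the other 7 genes lie within theirs.

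TEAD factors bind the sequence GGAATG, and the promoters were searched for it because most of the 10 genes are read out as TEAD targets. RefSeq promoter windows of GRCm38.p6, from 250 bases before to 50 after an annotated transcript start, were matched by symbol for 8 of the 10 genes; Ccn2 and Tead1 were not matched. GGAATG was found on either strand in the windows of all 8 genes and in 9 of their 10 windows, against 14.7% of 32851 windows of all genes. The exception was the Lats2 window at chr14:57734369-57734668. The AP-1 site TGANTCA (in 7.81% of all windows) and the CArG box bound by SRF (in 1.63%) were in none of the 10. The genes were picked as targets or regulators of the pathway, so a share above that of all windows may follow from the choice. It says nothing about these arrays. A match is a match of letters, and no binding was measured. The 30 bases around each match are shown because they are what the 8 promoters have in common; each reads 5′ to 3′ on the strand that carries GGAATG, which is in capitals.
Ankrd1, farther from the start (chr19:36120037-36120066, minus strand): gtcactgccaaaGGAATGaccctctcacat
Ankrd1, nearer to the start (chr19:36119950-36119979, minus strand): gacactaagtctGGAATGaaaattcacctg
Lats2 (chr14:57746102-57746131, minus strand): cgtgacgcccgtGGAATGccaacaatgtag
Axl (chr7:25788949-25788978, minus strand): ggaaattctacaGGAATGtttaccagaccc
Ccn1 (chr3:145650071-145650100, plus strand): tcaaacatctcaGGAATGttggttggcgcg
Wwtr1 (chr3:57576029-57576058, minus strand): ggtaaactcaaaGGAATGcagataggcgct
Amotl2 (chr9:102717727-102717756, minus strand): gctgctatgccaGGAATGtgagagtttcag
Yap1 (chr9:8004720-8004749, minus strand): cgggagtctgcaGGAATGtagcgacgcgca
Ajuba, farther from the start (chr14:54577830-54577859, plus strand): gaggggcactgtGGAATGtatccatcaacg
Ajuba, nearer to the start (chr14:54577808-54577837, plus strand): ttgtttacagttGGAATGcgcggaggggca

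Distances are counted from the transcript start on which each window was built. The match began 5 bases into the transcript in Lats2 and before that start in the others. The annotated genes of Amotl2, Yap1, Axl and Lats2 begin farther upstream, so their distances hold for that transcript alone. The Amotl2 match lies inside its annotated gene. The distance was 65 bases in Amotl2, 103 in Ccn1, 141 in Yap1 and 233 in Axl. Ankrd1 had a match at 210 bases and another at 123 bases before its start, and Ajuba at 186 and 164 bases. In Wwtr1, where both windows held the same match, it was 170 or 136 bases before the start, depending on the transcript. The gene with the largest difference and the gene with the smallest, Ankrd1 and Ajuba, were the ones with a second match in their window. The whole Ankrd1 window (chr19:36119795-36120094, minus strand) is shown as that of the gene with the largest difference, with both matches in capitals.
Ankrd1 promoter window: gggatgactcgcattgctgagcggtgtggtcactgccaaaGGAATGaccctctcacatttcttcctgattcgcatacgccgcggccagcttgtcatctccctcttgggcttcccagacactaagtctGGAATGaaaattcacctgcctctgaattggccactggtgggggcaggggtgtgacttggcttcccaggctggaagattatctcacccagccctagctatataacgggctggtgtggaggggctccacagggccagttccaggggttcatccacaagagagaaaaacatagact

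Of the coactivator transcripts, Wwtr1 had the larger difference on these arrays and Yap1 the smaller. Wwtr1 read 5703 in the double knockout, against 3715 in the control, which is 0.62 on the log2 scale or 1.54-fold. Its other probe sets read 1487 in the double knockout, against 1074 in the control, and 1308 in the double knockout, against 829 in the control, so all 3 were higher, by 0.47 to 0.66 on the log2 scale. Yap1 read 3309 in the double knockout, against 2600 in the control, which is 1.27-fold or 0.35 on the log2 scale. The second Yap1 probe set, at 508 in the double knockout, against 396 in the control, gave 0.36, so its 2 probe sets gave nearly the same difference. Among the 500 genes nearest in mean signal, 455 had a lower difference than Wwtr1 and 395 a lower difference than Yap1. The difference of Wwtr1 was above that of 18 of the 36 glomerular markers and that of Yap1 above 7 of them. After recentring on those markers Wwtr1 stood at 0.021 and Yap1 at -0.25.

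Tead1, the DNA-binding partner, read 2881 in the double knockout, against 2168 in the control (1.33-fold, 0.41 on the log2 scale). A second, dim Tead1 probe set read 77.0 in the double knockout, against 85.1 in the control, a log2 difference of -0.15, so the direction for Tead1 depends on the probe set. Recentring on glomerular markers also put the brighter one below 0, at -0.19. Among its relatives, Tead2 was 2.14-fold higher at a low signal (264 in the double knockout, against 123 in the control), Tead3 read 220 in the double knockout, against 201 in the control, and Tead4 was below the floor on both arrays.

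Lats2 encodes a kinase that phosphorylates YAP and TAZ and is itself a target of theirs, which closes a negative feedback loop. The probe set that represents it read 1866 in the double knockout, against 983 in the control, a 1.90-fold or 0.92 log2 difference, the third in size of the 10 and just short of the 2-fold rule. A brighter Lats2 probe set of the kind that may cross-hybridise, and which therefore does not represent the gene, read 3771 in the double knockout, against 1994 in the control, a log2 difference of 0.92. The remaining Lats2 probe sets were dimmer and differed less. One read 539 in the double knockout, against 421 in the control (0.36), another read 71.1 in the double knockout, against 62.6 in the control (0.18), a further one reached the floor on the double knockout array alone (62.6, against 30.1 in the control), and the last was below the floor on both arrays (7.30 in the double knockout, against 4.72 in the control). A probe set annotated to both Lats2 and Xpo4 is not a member and read 190 in the double knockout, against 147 in the control. All Lats2 probe sets above the floor on both arrays were therefore higher, but with the probe set of median difference Lats2 was 0.36. The direction of those below the floor on either array is not read. Lats1, the related kinase, had 1524 in the double knockout, against 1521 in the control, which is 0.0031 on the log2 scale.

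Amotl2, an angiomotin family scaffold that binds YAP and is also induced by it, had 1 probe set, which read 2981 in the double knockout, against 2124 in the control (1.40-fold, 0.49 on the log2 scale). Its relatives Amotl1 and Amot were higher by 0.84 and 0.59 on the log2 scale. Ajuba, a LIM-domain scaffold that restrains the LATS kinases, also had 1 probe set and the smallest difference of the 10, at 2171 in the double knockout, against 1817 in the control (1.19-fold, 0.26). Its relative Wtip was 1.49-fold higher and Limd1 1.08-fold higher. Of the 500 genes of like signal, 433 had a lower difference than Amotl2 and 364 a lower one than Ajuba. After recentring on glomerular markers Amotl2 stood at -0.11 and Ajuba at -0.34.

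**Figure D2:**
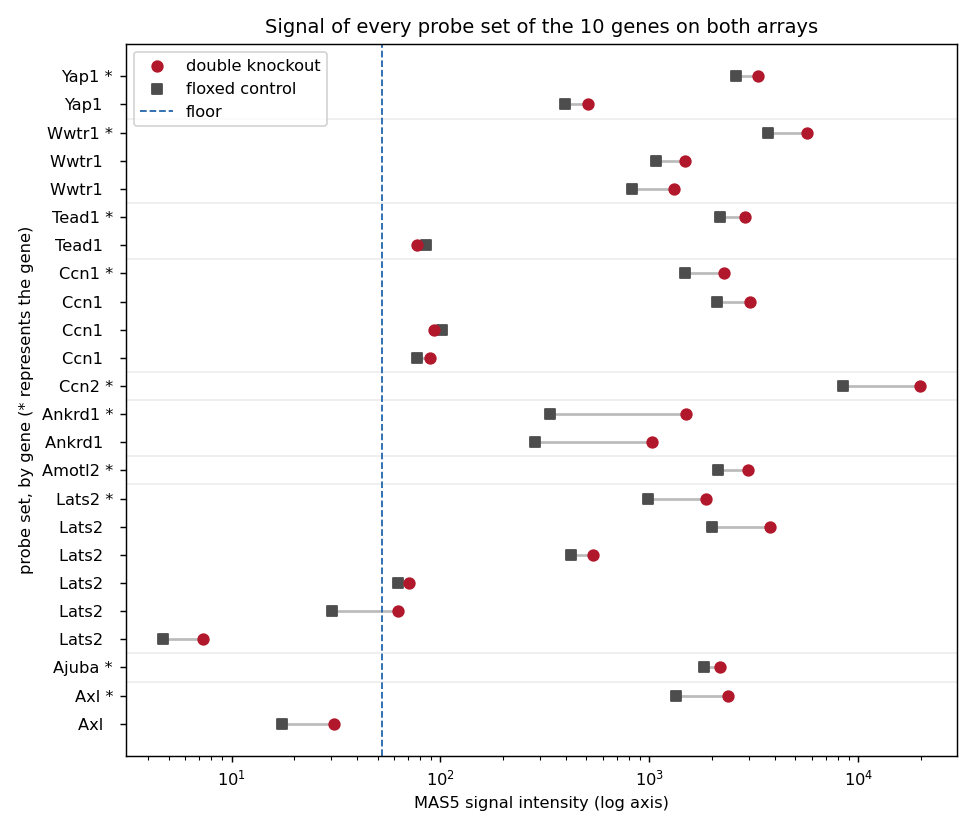
MAS5 signal intensity (x axis, log scale) of all 24 probe sets of the 10 genes (y axis, in groups by gene) in the double knockout (red circles) and the floxed control (grey squares), 1 array each; an asterisk marks the probe set that represents the gene and the dashed line is the floor of 52.7. The circle lies to the right of the square in all but 2 dim probe sets, 1 of Tead1 and 1 of Ccn1.

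Of the 24 probe sets, 21 were at or above the floor on both arrays. Among these 19 were higher in the double knockout, 3 were past 2-fold upward (1 of Ccn2 and 2 of Ankrd1) and none downward. Over all 22273 probe sets above the floor on both arrays with 1 symbol, 56.8% were higher, 3.12% by 2-fold or more, and 2.45% were lower by 2-fold or more. Probe sets of 1 gene share its transcripts and are not replicates.

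The secreted CCN proteins, which sit in the matrix and bind integrins, are widely used readouts of YAP and TAZ. Ccn2 (connective tissue growth factor) had 1 probe set, which read 19669 in the double knockout, against 8461 in the control, a 2.32-fold or 1.22 log2 difference that ranked 219th of the 13290 measured genes. Genes this bright tended to be lower in the double knockout, with a median of -0.29 over the 500 nearest in signal, and 498 of those 500 had a lower difference than Ccn2. Removing the trend of the difference on signal raised the Ccn2 value to 1.53, and recentring on glomerular markers lowered it to 0.62. Proximal tubule markers were lower as a group (median -0.86), and some of them are as bright as Ccn2. Their part in this trend was not tested. The Ccn2 difference exceeded that of 35 of the 36 glomerular markers. The exception was Cd44, a hyaluronan receptor, at 2.46.

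Ccn1 (CYR61), which is also an immediate early gene, differed less than Ccn2. It read 2271 in the double knockout, against 1478 in the control (1.54-fold, 0.62 on the log2 scale), and a brighter probe set that may cross-hybridise gave 3021 in the double knockout, against 2104 in the control (0.52). The 2 other Ccn1 probe sets were dim and went both ways, at 92.7 in the double knockout, against 102 in the control (-0.14) and at 89.4 in the double knockout, against 77.3 in the control (0.21). With the probe set of median difference Ccn1 was 0.21, and after recentring on glomerular markers it was 0.022. Other immediate early genes had a median of 0.33 over 11 (-0.27 once recentred on glomerular markers). Of these, 10 were above 0, against 56.1% of all measured genes. None was at least 2-fold higher or lower, which is near the shares of 3.53% and 2.87% over all measured genes. The largest were Klf6 (1.85-fold), Ier3 (1.49-fold), Fos (1.44-fold) and Ier2 (1.30-fold), all of them transcription factors or growth response genes that are switched on within a short time of a stimulus. Of the other CCN genes, Ccn4 was 1.97-fold higher at a low signal (350 in the double knockout, against 178 in the control), and Ccn3, Ccn5 and Ccn6 were below the floor on both arrays.

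Ankrd1 showed the largest difference of the 10. It encodes an ankyrin repeat protein of the nucleus and the muscle sarcomere that responds to stretch and injury and is a sensitive target of YAP and TAZ. The probe set that represents it read 1493 in the double knockout, against 333 in the control, a 4.48-fold or 2.16 log2 difference that ranked 19th of 13290 measured genes and was above that of all 500 genes of like signal. The second Ankrd1 probe set read 1032 in the double knockout, against 283 in the control (3.65-fold, 1.87). Both arrays were well above the floor in both probe sets, and both gave more than a 3-fold difference. Under all 12 other floors, scalings and probe set choices the log2 difference stayed between 1.57 and 2.16. Of the glomerular markers, Cd44 again was the only one with a larger difference. The relative Ankrd23 was below the floor in the double knockout (21.8) and above it in the control (69.0), and Ankrd2 was below the floor on both.

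Axl, a receptor tyrosine kinase whose gene is a target of YAP, read 2390 in the double knockout, against 1340 in the control, a 1.78-fold or 0.83 log2 difference. Its second probe set was below the floor on both arrays (30.9 in the double knockout, against 17.4 in the control). Both other receptors of its family were also higher. Mertk, a receptor for dying cells that macrophages use, was 2.14-fold higher (5927 in the double knockout, against 2773 in the control), and Tyro3 was 1.59-fold higher (371 in the double knockout, against 234 in the control). Macrophage markers were higher on the same array, and their part in the values of Axl and Mertk was not tested. Over the 11 measured relatives of the 10 genes the median was 0.59, with 10 above 0 and 2, Tead2 and Mertk, past 2-fold upward, and none downward, against 56.1% above 0, 3.53% upward and 2.87% downward over all measured genes. Of these relatives, 5 are also on the list of Hippo regulators.

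The 20 measured genes among 23 others reported as YAP and TAZ targets had a median log2 difference of 0.81, against 0.62 for the 10 genes and 0.068 for all measured genes. Of these, 18 were above 0 (56.1% over all measured genes), 6 were higher by 2-fold or more (background 3.53%) and none lower by as much (2.87%). Of the 36 glomerular markers, 5 were at least 2-fold higher. This list was chosen with earlier results of these data known, so its shares are descriptions. The largest were the growth factor gene Tgfb2 (TGF-β2; 4.31-fold, 1062 in the double knockout, against 246 in the control), Asap1, an Arf GTPase-activating protein (3.34-fold, 911 in the double knockout, against 273 in the control), Ccdc80, a matrix protein (3.12-fold, 4506 in the double knockout, against 1445 in the control), and the growth regulator Myc (3.00-fold, 307 in the double knockout, against 102 in the control). The other probe sets of Tgfb2 and Ccdc80 gave 1.43 to 2.11 and 1.71 on the log2 scale, but those of Asap1 gave 0.65 and -0.14. Thbs1 (thrombospondin 1, 2.10-fold) and Edn1 (endothelin 1, 2.02-fold) were the other genes past 2-fold and were named after their values were seen, as were the 2 genes below 0. The second Thbs1 probe set gave 0.77, short of 2-fold. The genes below 0 were Igfbp3, an IGF-binding protein (1.67-fold lower), and the kinase gene Nuak2 (1.21-fold lower). After recentring on glomerular markers the median of this list was 0.22.

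Hippo pathway genes upstream of YAP and TAZ differed less. The 26 measured kinases, adaptors and regulators had a median of 0.44 (-0.16 once recentred on glomerular markers), with 20 above 0 (56.1% over all measured genes), 1 past 2-fold upward and none downward. That 1 of 26 is near the background of 3.53%. The one past 2-fold was Map4k4, which encodes a kinase that acts on LATS beside the MST kinases (2.31-fold, 1361 in the double knockout, against 590 in the control); its other probe sets above the floor gave 0.86, 0.68 and -0.31. Amotl1, the FERM-domain gene Frmd6 (1.78-fold) and Dchs1, which encodes a giant cadherin (1.70-fold), followed. Of the core components, the kinase gene Stk4 (MST1) was at 0.45, the scaffold gene Sav1 at 0.42 and the LATS cofactor gene Mob1a at 0.54 on the log2 scale, while the tumour suppressor gene Nf2 (merlin) was at 0.061 and Mob1b at -0.033. Among the genes below 0 were the apical polarity gene Crb3 (-0.73) and Wwc1, which encodes KIBRA (-0.39). Genes singled out here beyond the 4 of largest difference were chosen after their values were seen. Of the VGLL cofactors that compete with YAP for TEAD, Vgll3 was 1.46-fold higher (0.55 on the log2 scale). Vgll4 was at 0.17 and Vgll2 was near the floor in the control and below it in the double knockout.

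Known targets of MRTF and SRF, a stretch-sensitive pair of factors that shares targets with YAP, had a median of 0.63 over 17. The list holds actin and contractile genes and Srf itself. All 17 were above 0 (56.1% over all measured genes) and 2 were at least 2-fold higher (3.53%). These were Tagln (transgelin, 3.23-fold, 7708 in the double knockout, against 2389 in the control) and Actn1 (α-actinin 1, 2.40-fold, 5127 in the double knockout, against 2136 in the control), and both other Actn1 probe sets were past 2-fold as well (1.17 and 1.44). Tpm1 (tropomyosin 1) and Flna (filamin A) were 1.98-fold and 1.93-fold higher. Cnn1 and Actg2, named because they were below the floor in the control, have differences whose size the floor sets. Some of these genes are also mesangial and smooth muscle genes. The 9 mesangial markers had a median of 0.72, with 8 above 0 (56.1% over all measured genes). Of them, Des (2.20-fold) and Sfrp2 (2.02-fold) were past 2-fold upward (3.53%). Rgs5 was at 0.19 and Myh11 at -0.14, both named after their values were seen. After recentring on glomerular markers the median of the MRTF and SRF targets was 0.031.

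**Figure D3:**
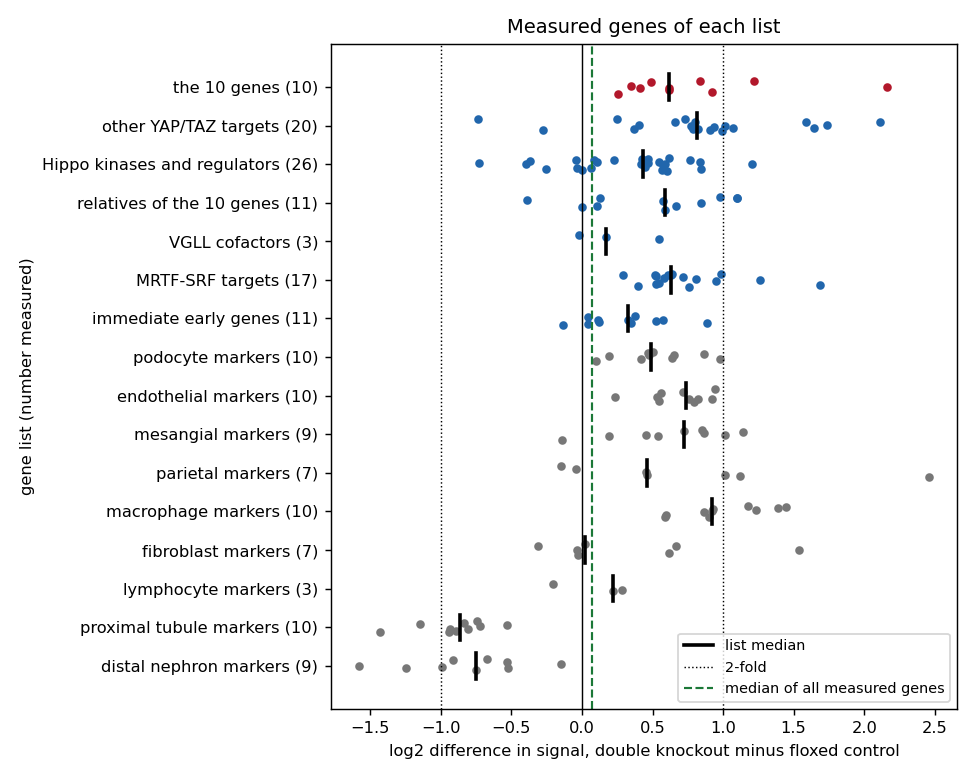
Log2 difference in signal (x axis), double knockout minus floxed control, of each measured gene (points) in the lists named on the y axis, with the number measured in brackets. Black bars are list medians, the green dashed line is the median of all measured genes (0.068) and dotted lines mark 2-fold. The medians of the 10 genes (red, 0.62) and the other targets (0.81) lie on the same side of 0 as those of the glomerular cell markers. These are podocyte (0.49), endothelial (0.74), mesangial (0.72) and parietal markers (0.46). Macrophage (0.92), lymphocyte (0.22) and fibroblast markers (0.022) also have medians above 0, and the tubule markers lie on the other side.

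**Figure D4:**
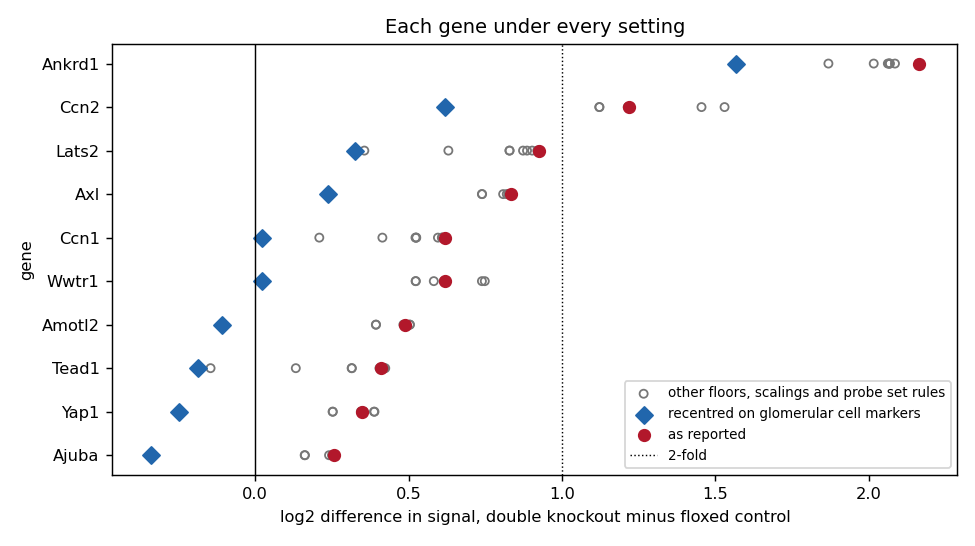
Log2 difference in signal (x axis), double knockout minus floxed control, of each of the 10 genes (y axis) as reported (red), under the other floors, scalings and probe set rules (open circles) and after recentring on the glomerular cell markers (blue diamonds). Ankrd1 stays right of the dotted 2-fold line in all of them, and Yap1, Tead1, Amotl2 and Ajuba lie left of 0 after recentring.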

How the data were processed

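Glomerular RNA of 2 arrays, 1 per genotype, was labelled as biotinylated cRNA for 1-colour arrays, per the labels' protocols. Each deposited value is the linear intensity of a probe set on an array, which the authors computed by MAS5, per the submitters' processing notes (the version is not given there); their trimmed mean was 500.0 on both arrays. The number of arrays limits the precision.

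Of 45101 probe sets, 64 controls were left out and 34945 had exactly 1 symbol in GEO's platform annotation; 34741 of these matched RefSeq identifiers. A gene was represented by its probe set of highest mean log2 signal, without _x_at sets where another existed. Signals below the floor were raised to it. The differences were computed with Python 3.11.15 and numpy 2.4.6, and the steps were tested on simulated signals. No test across animals can be had, so a 2-fold size rule was used, and medians stand for lists. Genes of like signal were the 500 measured genes nearest in mean log2 signal.

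The text names all probe sets of the 10 genes, Npr1, Mapk14 and up to 4 genes per list (2 per cell type) of largest difference; others are marked or stand as counterparts of a member. The members and lists were chosen with earlier results of these data known. Listed genes without a measured probe set are not analysed here. One of the lists is not reported here.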

Additional observations from a re-analysis of the deposited data

How the results depend on the processing

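Over 12 other floors, scalings and probe set choices, 114 of 120 values of the 10 genes kept their direction and their side of the 2-fold rule. That count includes values that could not move. Other floors, or no floor, returned the reported value for all 10 genes, whose representing probe sets lay above each floor. Probe set choices cannot change Ccn2, Amotl2 or Ajuba, which have 1 probe set each. Recentring on glomerular markers shifted all differences by -0.60; it put Ccn2 at 0.62, Yap1 at -0.25, Tead1 at -0.19, Amotl2 at -0.11 and Ajuba at -0.34, and left 1 of the 10 at least 2-fold higher. The sixth value was Tead1 at -0.15 with the probe set of median difference. Under that recentring 72 of all genes were at least 2-fold higher and 2237 lower. The medians became -0.16 (Hippo regulators), -0.011 (relatives), -0.42 (VGLL), 0.22 (other targets), 0.031 (MRTF and SRF targets) and -0.27 (immediate early). The shift itself accounts for these counts and medians. With the floor at the 60th percentile 274 genes were higher and 304 lower. At 1.5-fold the counts were 1820 higher and 1331 lower, with 6 of the 10 higher; at 3-fold they were 73 and 34, with 1 of the 10. Of genes past 2-fold, 55.1% were higher as reported, 38.6% with arrays centred at their median (or their 75th percentile), 44.9% after quantile normalization, 43.7% after removal of the loess trend and 48.2% with the probe set of median difference. No paired analysis was possible because each genotype has 1 array. Signals near the floor limit the dim probe sets of Tead1, Ccn1 and Lats2.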
